A study of Mus musculus with 24 samples.

Results

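The genes described here are 9 that make, carry, read and degrade retinoic acid in mouse cells, taken by name from the 53465 genes of the deposited count table. Aldh1a1, Aldh1a2 and Aldh1a3 encode the retinaldehyde dehydrogenases, which make retinoic acid. Crabp1 and Crabp2 encode the cellular retinoic acid binding proteins, Rara, Rarb and Rarg the nuclear receptors, and Cyp26b1 a hydroxylase that clears the acid. All 9 had counts in the series and all 9 passed the filter on low counts.

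The cells were adipocytes grown from the stromal vascular fraction of white fat, with 24 poly(A) RNA libraries in 8 groups of 3. Each group was a combination of genotype, siRNA and depot. The aKO mice carried floxed Senp2 with Adipoq-Cre (strain label Senp2flox/flox ; Adipoq Cre), and the Cont mice carried floxed Senp2 alone, so both genotypes held the floxed allele. SENP2 is a protease that removes SUMO from other proteins, and the Adipoq promoter drives Cre in fat cells that express adiponectin, so cells in the dish that had not turned that gene on would keep Senp2. One siRNA was directed at C/EBPβ, a transcription factor of early fat cell differentiation (siCEBPb), and the other carries the label siNS, which the labels do not explain. The depots were inguinal white fat (iWAT) and epididymal white fat (eWAT). Cells were induced for 2 days with dexamethasone, isobutylmethylxanthine and insulin, then kept in insulin and serum for 5 days more. Nothing in the labels says that replicates were separate animals or cultures, so each p-value measures only the spread between these libraries.

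Retinol is oxidised reversibly to retinaldehyde, with RDH10 as a main enzyme of the forward step and DHRS3 as a main enzyme of the return. The ALDH1A enzymes then oxidise retinaldehyde irreversibly to retinoic acid, which binds the receptors RARα, RARβ and RARγ. These sit on DNA with an RXR partner, often at direct repeats of a short half-site, and Rarb itself is a classic gene switched on by its own ligand in this way. In white fat, retinoids are known to act on the differentiation of precursors and on the programme of heat production, and loss of Aldh1a1 in mice is known for its effects on both.

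Short stretches of promoter are shown because the retinoic acid receptors and C/EBPβ, the target of siCEBPb, each have a known DNA motif. Whether the receptors act in these results was not tested. RefSeq promoters of build GRCm38.p6, which run from 250 bases before to 50 bases after a gene's start, were searched on both strands. Of the 9 genes, 7 had 12 promoters in the table, and Aldh1a3 and Crabp2 had none there. The receptor motifs searched were pairs of receptor half-sites in the same direction with 1, 2 or 5 bases between them (DR1, DR2 and DR5). DR1 and DR2 were found in 73 and 88 of 32851 promoters, and in none of these 12. DR5 was found in 32 of 32851 promoters (0.0974%). Rarb was the one gene of the 7 that held it. Cyp26a1, a hydroxylase that is a textbook target, held it as well. Half-sites are in capitals below, read 5′ to 3′ along the minus strand at chr14:16575513-16575529 for Rarb and at chr19:37697776-37697792 for Cyp26a1.
Rarb DR5: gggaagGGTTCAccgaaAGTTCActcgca
Cyp26a1 DR5: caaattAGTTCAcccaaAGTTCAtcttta
The Rarb repeat lies 53 to 37 bases before the RefSeq start and inside the first exon of other annotated Rarb transcripts, and it runs in the direction of the gene. The Cyp26a1 repeat lies 32 to 16 bases before the start on the strand opposite to the gene.

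The C/EBP motif searched was TTGCNNAA, on either strand, which 3547 of the 32851 promoters (10.8%) held and which 3 of the 12 promoters of these genes held. Those 3 belonged to Aldh1a1 (1 of its 2 promoters) and to the receptors Rarb (its 1 promoter) and Rarg (1 of 2). The motif is in capitals below, at chr19:20492570-20492577 on the minus strand for Aldh1a1, at chr14:16575495-16575502 on the plus strand for Rarb and at chr15:102246726-102246733 on the minus strand for Rarg.
Aldh1a1 TTGCNNAA: tcatctTTGCCAAAattctc
Rarb TTGCNNAA: attgaaTTGCCTAAtatatg
Rarg TTGCNNAA: gtgtatTTGCACAAattctt
A match says only that these letters stand there. None of the 3 matches overlapped a DR5 repeat.

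Gene counts per library ran from 8435494 to 15388744 in 23 libraries, and iWAT aKO siNS replicate 2 held 603585, with 93.3% of its reads not aligned against 16.8% to 27.6% in the others. The main results on iWAT aKO siNS cells are therefore given with and without that library, which is called the shallow library. The mean level of Cebpb was 18.5 to 50.3 CPM (counts per 1e6 of the library's gene counts after TMM scaling) in the siCEBPb groups, against 114 to 167 CPM in the siNS groups. Under siCEBPb, Cebpb was also lower in aKO than in Cont cells, with a log2 fold change of −0.97 ± 0.19 (standard error, SE) in iWAT and −0.88 ± 0.17 in eWAT (edgeR adjusted p 0.00155 and 0.00134). Senp2 averaged 47.5 to 53.1 CPM in the aKO groups and 49.8 to 54.4 CPM in the Cont groups, and passed no genotype test. The exons that the floxed allele spans are not given in these sources, so a count over the whole gene is no check of the genotype. Summed CPM of 10 adipocyte markers was 3372 and 2600 in aKO siNS cells of iWAT and eWAT, against 2430 and 1913 in Cont siNS cells. The 10 markers of progenitors and fibroblasts summed to between 17613 and 25869 CPM in the 8 groups, above the adipocyte sum in each, and the highest single value, 41371 CPM, was that of the shallow library. In bulk RNA, fewer cells of a type and less RNA per cell cannot be told apart.

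Per kilobase of exon, and averaged over all libraries, Rarg was the most abundant of the 9 at 16 CPM per kb, followed by Aldh1a1 at 13.3, Aldh1a2 at 10.2, Rara at 9.84 and Crabp2 at 9.20 CPM per kb. Aldh1a3 stood at 5.60, Cyp26b1 at 2.99, Crabp1 at 1.89 and Rarb at 0.394 CPM per kb. Rarg thus lay at the 80.5 percentile of the tested genes by level and Rarb at the 10.7 percentile.

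**Figure D1:**
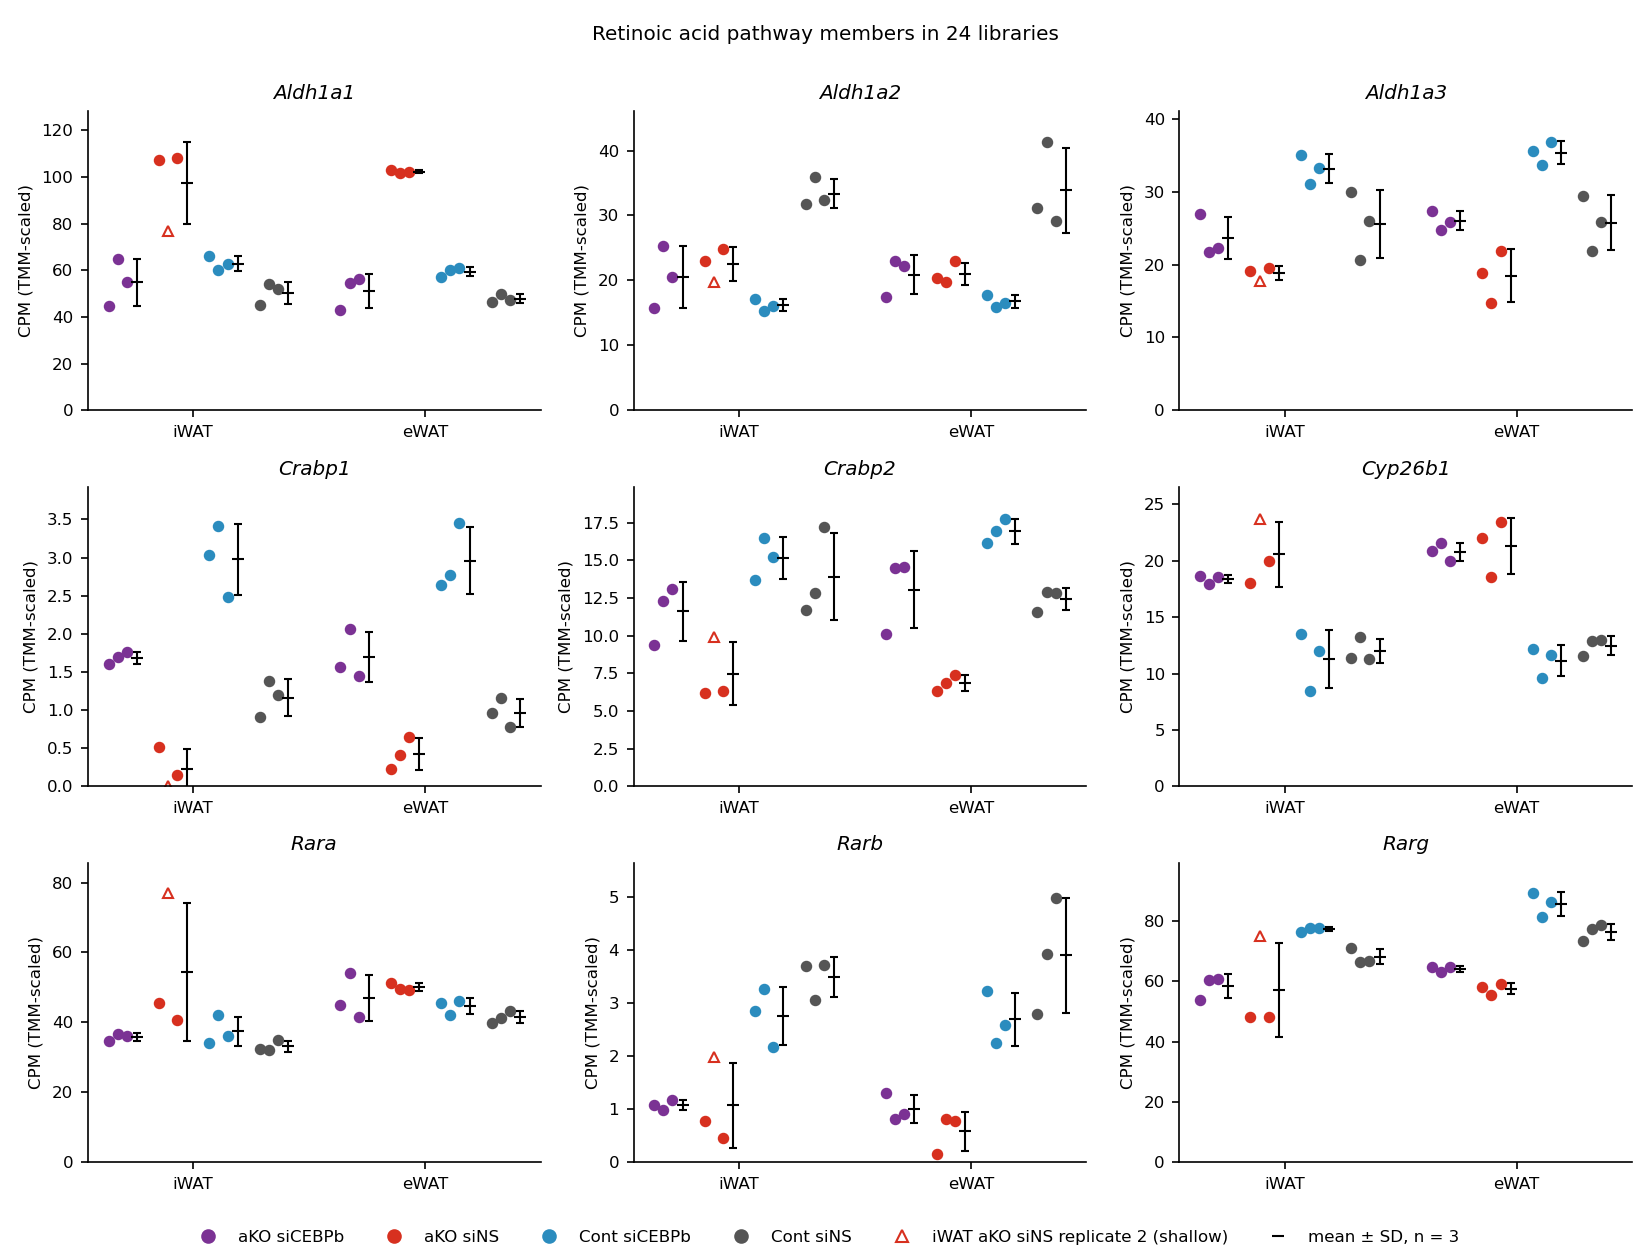
CPM of the 9 genes in each of the 24 libraries, one panel per gene, with the groups along the horizontal axis ordered aKO siCEBPb, aKO siNS, Cont siCEBPb and Cont siNS within each depot. Points are libraries, black marks are the mean ± SD of 3 and the open triangle is the shallow library. Aldh1a1 reaches 97.4 and 102 CPM on average in aKO siNS cells of iWAT and eWAT, and between 47.9 and 62.9 CPM in the other 6 groups.

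Aldh1a1 (ENSMUSG00000053279, chr19:20492715-20643465, plus strand, GRCm38) stood at 107, 77.0 and 108 CPM in aKO siNS cells of iWAT, against 45, 54.0 and 52.1 CPM in Cont siNS cells. In eWAT it stood at 103, 102 and 102 CPM in aKO siNS cells, against 46.3, 49.9 and 47.4 CPM in Cont siNS cells. Every aKO siNS library lay above every Cont siNS library in both depots. Aldh1a1 rose 2.09-fold in iWAT (log2 1.06 ± 0.11 SE, edgeR adjusted p 1.54e-07) and 2.14-fold in eWAT (log2 1.09 ± 0.10, adjusted p 1.19e-08). Under siCEBPb the picture was different. In aKO siCEBPb cells Aldh1a1 stood at 44.8, 64.9 and 54.8 CPM in iWAT and 42.9, 54.8 and 56.2 CPM in eWAT, all below the aKO siNS libraries of the same depot. In Cont siCEBPb cells it stood at 66, 60.0 and 62.7 CPM in iWAT and 57.3, 59.9 and 61.1 CPM in eWAT, all above the Cont siNS libraries of the same depot. The knockdown thus lowered Aldh1a1 in aKO cells, with log2 fold changes of −0.93 ± 0.11 in iWAT and −1.0 ± 0.10 in eWAT (edgeR adjusted p 1.61e-07 and 1.12e-08). In Cont cells it raised the gene slightly, by log2 0.32 ± 0.11 and 0.31 ± 0.10 (adjusted p 0.0281 and 0.0255). That call was lost when replicate 1 or 3 of Cont siNS or of Cont siCEBPb was left out in iWAT (adjusted p 0.0524 to 0.166). In eWAT it was lost without Cont siNS replicate 1 or 3 or Cont siCEBPb replicate 2 or 3 (adjusted p 0.0676 to 0.0958), and with DESeq2 (adjusted p 0.0584). Under siCEBPb the genotypes differed by −0.19 ± 0.10 in iWAT and −0.21 ± 0.10 in eWAT, and neither passed (edgeR adjusted p 0.311 and 0.226).

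Aldh1a2 (ENSMUSG00000013584, chr9:71215789-71296243, plus strand) went the other way. It stood at 22.9, 19.8 and 24.9 CPM in aKO siNS cells of iWAT, against 31.7, 36.0 and 32.4 CPM in Cont siNS cells. The eWAT values were 20.4, 19.8 and 23 CPM in aKO siNS cells, against 31.2, 41.3 and 29.2 CPM in Cont siNS cells. The groups did not overlap in either depot, and Aldh1a2 fell by 0.49 ± 0.15 and 0.69 ± 0.13 on the log2 scale in iWAT and eWAT (edgeR adjusted p 0.0271 and 0.000385). In iWAT the call was lost when Cont replicate 2, aKO replicate 1 or aKO replicate 3 was left out, with adjusted p 0.098, 0.139 and 0.0685. Knockdown lowered it in Cont cells. It stood at 17.1, 15.3 and 16.1 CPM in Cont siCEBPb cells of iWAT and at 17.8, 15.9 and 16.6 CPM in those of eWAT, below every Cont siNS library. This was 2.07-fold and 2.02-fold lower, with log2 fold changes of −1.05 ± 0.14 in iWAT and −1.02 ± 0.13 in eWAT (edgeR adjusted p 3.38e-06 and 1.73e-06). In aKO siCEBPb cells Aldh1a2 stood at 15.8, 25.3 and 20.6 CPM in iWAT and 17.5, 22.9 and 22.2 CPM in eWAT, which overlapped the aKO siNS libraries, with log2 fold changes of −0.20 ± 0.15 and −0.02 ± 0.14 (adjusted p 0.35 and 0.943).

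The effect of the knockdown on these 2 dehydrogenases therefore differed between the genotypes, and this dependence on genotype was tested in its own right. The log2 knockdown effect on Cebpb itself was −2.69 in aKO and −1.79 in Cont cells of iWAT, and −2.47 and −1.73 in eWAT. That difference for Cebpb did not pass (edgeR adjusted p 0.0523 and 0.0563), although its level under siCEBPb was lower in aKO cells, as given above. Unequal knockdown and a response that differs by genotype cannot be told apart here. The knockdown effect in aKO cells minus that in Cont cells was −1.26 ± 0.15 on the log2 scale for Aldh1a1 in iWAT and −1.31 ± 0.14 in eWAT (edgeR adjusted p 2.31e-05 and 2.84e-06). For Aldh1a2 the same difference was 0.84 ± 0.21 in iWAT and 1.00 ± 0.19 in eWAT (adjusted p 0.0219 and 0.00206). These were the 2 of the 9 genes that passed this test, in both depots, where 3.51% of the 14785 genes tested passed in iWAT and 6.34% in eWAT. Without the shallow library Crabp2 and Rara also passed in iWAT, at 0.76 ± 0.22 and −0.43 ± 0.12 (adjusted p 0.0353 and 0.0322), and with no filter on low counts Rarb passed in eWAT at 1.30 (adjusted p 0.0488). The Aldh1a2 result in iWAT was lost when any 1 of 4 libraries was left out (replicate 2 of Cont siNS, Cont siCEBPb or aKO siCEBPb, or replicate 1 of aKO siNS), with adjusted p from 0.0534 to 0.0831. Without the shallow library the iWAT differences were −1.28 for Aldh1a1 and 0.85 for Aldh1a2 (adjusted p 3.48e-06 and 0.0199). Rdh10, which makes the substrate of these enzymes, passed the same tests of genotype under siNS, knockdown in Cont cells and genotype dependence as Aldh1a2, in the same directions. It stood at 16.8, 11.9 and 18.2 CPM in aKO siNS cells of iWAT, against 25.1, 27.5 and 24.5 CPM in Cont siNS cells, and fell by 0.57 ± 0.11 there and by 0.48 ± 0.09 in eWAT (edgeR adjusted p 0.00039 and 0.00026). Leaving out the shallow library gave −0.56 for that fall in iWAT and 0.75 for the genotype dependence (adjusted p 0.000195 and 0.000961). Knockdown lowered Rdh10 by 0.72 ± 0.10 and 0.64 ± 0.09 in Cont cells, and the knockdown effect in aKO minus Cont cells was 0.76 ± 0.15 and 0.71 ± 0.13 (adjusted p 0.0027 and 0.0011). Rdh10 was named after its values were seen, from 12 tested genes of retinol uptake, storage and first oxidation. Of these 12, 1 passed above 0 and 1 below 0 for genotype dependence in iWAT without the shallow library, where 6.36% of tested genes passed.

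**Figure D2:**
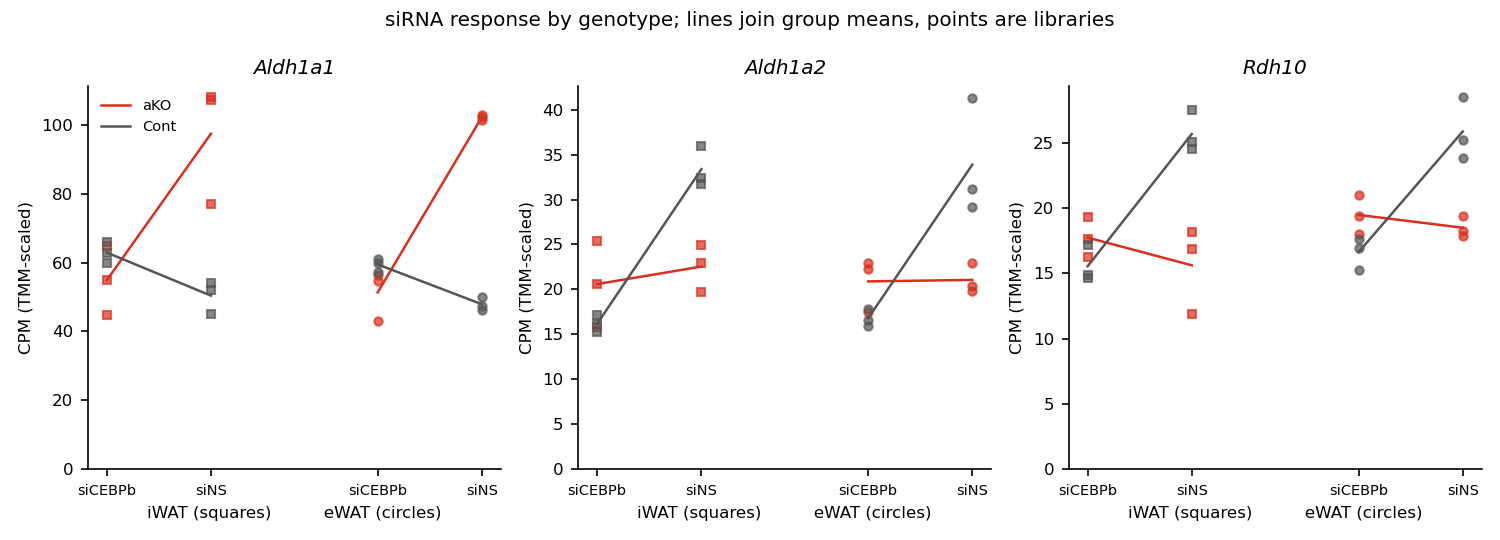
CPM of Aldh1a1, Aldh1a2 and Rdh10 by siRNA, with aKO cells in red and Cont cells in grey and each depot marked. Points are libraries and lines join group means. Aldh1a1 is lower under siCEBPb in aKO cells and slightly higher in Cont cells, while Aldh1a2 and Rdh10 are lower under siCEBPb in Cont cells.

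Aldh1a3 (ENSMUSG00000015134, chr7:66390890-66427517, minus strand) stood at 19.2, 17.8 and 19.5 CPM in aKO siNS cells of iWAT, against 30.0, 20.7 and 26.0 CPM in Cont siNS cells. In epididymal cells it was measured at 18.8, 14.7 and 21.9 CPM in aKO siNS cells, against 29.4, 21.9 and 25.9 CPM in Cont siNS cells. The highest aKO and the lowest Cont library of eWAT both stood at 21.9 CPM to 3 digits, and the call there (log2 −0.47 ± 0.13, edgeR adjusted p 0.00751) was lost without Cont replicate 1 or aKO replicate 2 (adjusted p 0.0745 and 0.081). In iWAT the value was −0.41 ± 0.15 and did not pass (adjusted p 0.0603, and 0.0741 without the shallow library). Under siCEBPb Aldh1a3 fell in aKO cells of both depots, by 0.48 ± 0.12 in iWAT and 0.44 ± 0.12 in eWAT (adjusted p 0.0104 and 0.013). These calls were lost without Cont replicate 1 or aKO replicate 2 or 3 in iWAT (adjusted p 0.0505 to 0.0644) and without Cont replicate 3 or aKO replicate 2 in eWAT (adjusted p 0.0617 and 0.0602). Knockdown raised it in Cont cells by 0.37 ± 0.13 and 0.46 ± 0.12 (adjusted p 0.0345 and 0.00414) and in eWAT aKO cells by 0.49 ± 0.13 (adjusted p 0.00302). In iWAT aKO cells the value was 0.29 ± 0.15 (adjusted p 0.134). The iWAT Cont call was lost with DESeq2 (adjusted p 0.0537) and without siNS replicate 2 or 3 or siCEBPb replicate 1 or 3 (adjusted p 0.0784 to 0.237).

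Set against each other per kilobase, Aldh1a1 was the leading dehydrogenase in aKO siNS cells and Aldh1a2 in Cont siNS cells. Aldh1a1 made up 58.2% and 61% of the summed ALDH1A level in aKO siNS cells of iWAT and eWAT, against 33.4% and 32.2% in Cont siNS cells. Aldh1a2 made up 29.6% and 27.3% in aKO siNS cells, against 48.3% and 49.2% in Cont siNS cells. The sum itself was 33.8 ± 4.87 and 34.0 ± 1.55 CPM per kb in aKO siNS cells, against 30.5 ± 0.845 and 30.2 ± 2.59 CPM per kb in Cont siNS cells (SD, n = 3 each). Under siCEBPb Aldh1a1 made up 43.7% and 41.0% in aKO cells, against 47.1% and 44.4% in Cont cells. In the 2 deeper libraries of iWAT aKO siNS cells, Aldh1a1 averaged 59.6%, Aldh1a2 28.9% and the sum 36.6 CPM per kb. These shares are descriptions and carry no test.

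**Figure D3:**
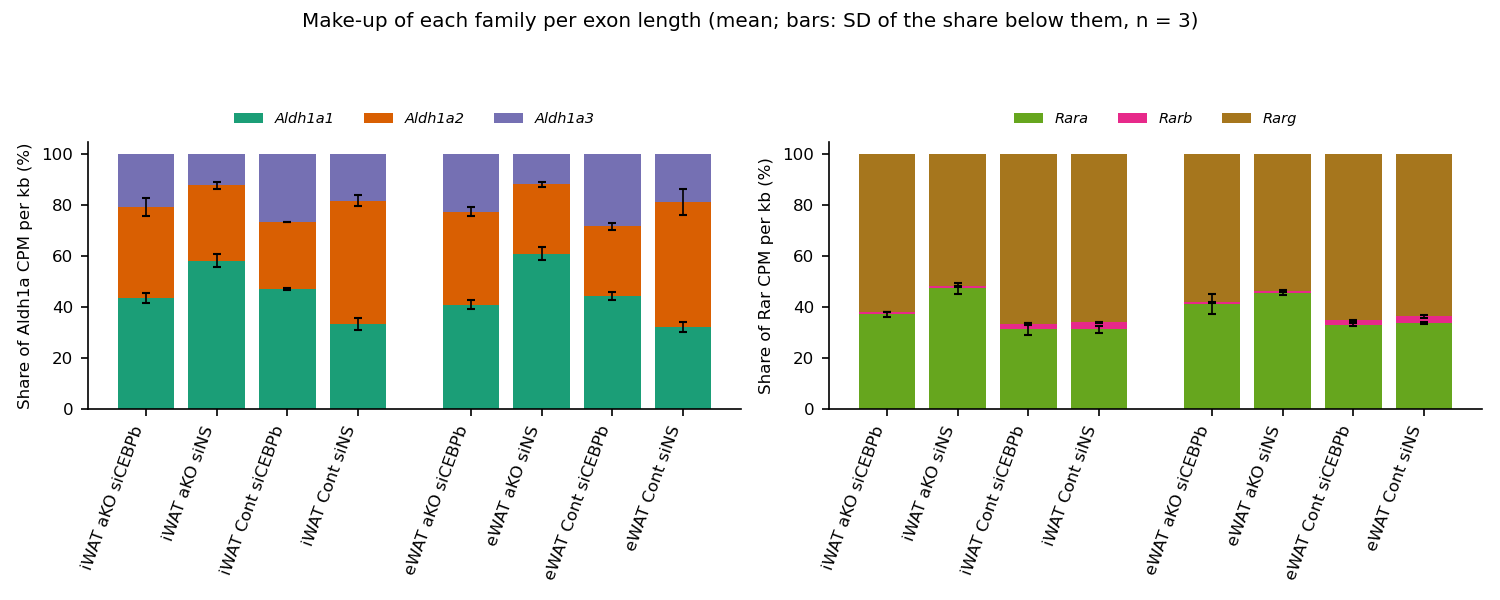
Mean share, in percent, of each ALDH1A gene in their summed CPM per kb (one panel) and of each RAR gene in theirs (the other), by group, with bars for the SD of a share over 3 libraries. Aldh1a1 holds 58.2% and 61% of the dehydrogenase level in aKO siNS cells and 33.4% and 32.2% in Cont siNS cells.

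Both binding proteins fell with the aKO genotype under siNS in both depots, and knockdown raised both in aKO cells. CRABP2 is known to carry retinoic acid to the receptor in the nucleus, and CRABP1 to hold it in the cytoplasm. Crabp2 (ENSMUSG00000004885, chr3:87948666-87953376, plus strand) stood at 6.19, 9.88 and 6.31 CPM in aKO siNS cells of iWAT, against 11.7, 12.9 and 17.2 CPM in Cont siNS cells. For eWAT the libraries gave 6.30, 6.83 and 7.38 CPM in aKO siNS cells, against 11.6, 12.9 and 12.8 CPM in Cont siNS cells. The groups did not overlap, and Crabp2 fell by 1.11 ± 0.18 in iWAT and 0.85 ± 0.15 in eWAT (edgeR adjusted p 7.67e-05 and 0.000128). Knockdown raised it in aKO cells by 0.87 ± 0.18 and 0.92 ± 0.15 (adjusted p 0.000411 and 1.55e-05), where it stood at 9.40, 12.3 and 13.1 CPM in iWAT and 10.1, 14.5 and 14.6 CPM in eWAT under siCEBPb. The iWAT libraries overlapped, since the lowest siCEBPb library lay below the shallow siNS one. In Cont cells the knockdown value was 0.15 ± 0.14 in iWAT, which did not pass (adjusted p 0.515), and 0.45 ± 0.13 in eWAT (adjusted p 0.0118). Under siCEBPb the genotypes differed by −0.39 ± 0.14 and −0.38 ± 0.13 (adjusted p 0.0862 and 0.0644), and the eWAT value passed without the shallow library (adjusted p 0.033).

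Crabp1 (ENSMUSG00000032291, chr9:54764748-54773110, plus strand) was sparse in siNS cells. It had 6, 0 and 2 counts in the aKO siNS libraries of iWAT, where the 0 came from the shallow library, in which 3 counts would have made 5.93 CPM. As CPM these were 0.516, 0 and 0.152 in aKO siNS cells, against 0.904, 1.38 and 1.2 in Cont siNS cells. It stood at 0.231, 0.406 and 0.647 CPM in aKO siNS cells of eWAT, against 0.957, 1.15 and 0.782 CPM in Cont siNS cells. All aKO siNS values lay below all Cont siNS values in both depots, although a 0 in the shallow library cannot place it below them. The fall was 1.83 ± 0.47 in iWAT and 1.12 ± 0.36 in eWAT on the log2 scale (edgeR adjusted p 0.00774 and 0.0282). The iWAT call was lost with only the groups compared in the fit, and without aKO replicate 3, where the value was −1.21 (adjusted p 0.176). The eWAT call was lost under DESeq2 (adjusted p 0.0581) and when any 1 of 4 libraries was left out (Cont replicate 1 or 2, aKO replicate 1 or 2), with adjusted p from 0.0633 to 0.128. Under siCEBPb it was higher in every library. Crabp1 stood at 1.61, 1.69 and 1.77 CPM in aKO siCEBPb cells of iWAT and 3.04, 3.41 and 2.49 CPM in Cont siCEBPb cells. In eWAT it stood at 1.57, 2.07 and 1.45 CPM in aKO siCEBPb cells and 2.64, 2.78 and 3.46 CPM in Cont siCEBPb cells. No siCEBPb library overlapped the siNS libraries of its genotype and depot. Knockdown raised Crabp1 by 2.38 ± 0.42 and 1.92 ± 0.33 in aKO cells (adjusted p 6.35e-05 and 2.71e-05) and by 1.37 ± 0.27 and 1.60 ± 0.25 in Cont cells (adjusted p 0.000261 and 1.03e-05), and these calls held under every alternative run. The genotype difference under siCEBPb was −0.82 ± 0.23 and −0.81 ± 0.22 (adjusted p 0.0209 and 0.015), lost in iWAT without replicate 1 or 2 of either genotype (adjusted p 0.057 to 0.124) and in eWAT without Cont replicate 3 or aKO replicate 1 or 3 (adjusted p 0.0695 to 0.0991), and in both with DESeq2 (adjusted p 0.0644 and 0.0555).

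Among the receptors, Rarb (ENSMUSG00000017491, chr14:16430839-16819156, minus strand), with 627 counts in all libraries together, had the largest difference between genotypes of the 9 genes. It stood at 0.773, 1.98 and 0.456 CPM in aKO siNS cells of iWAT, against 3.70, 3.07 and 3.72 CPM in Cont siNS cells. The eWAT values were 0.154, 0.812 and 0.776 CPM in aKO siNS cells, against 2.80, 3.93 and 4.98 CPM in Cont siNS cells. The highest aKO siNS value of iWAT, 1.98 CPM, was 1 count in the shallow library, where 3 counts would have made 5.93 CPM, so its place beside the Cont libraries cannot be read. The other 5 aKO siNS libraries lay below every Cont siNS library of their depot. Rarb was lower by 5.43-fold in iWAT (log2 −2.44 ± 0.39, edgeR adjusted p 5.09e-05) and 6.41-fold in eWAT (log2 −2.68 ± 0.31, adjusted p 3.33e-07). Without the shallow library the iWAT value was −2.52 (adjusted p 1.15e-05). Under siCEBPb it stood at 1.07, 0.986 and 1.18 CPM in aKO cells of iWAT, against 2.85, 3.26 and 2.17 CPM in Cont cells, and at 1.31, 0.812 and 0.898 CPM in aKO cells of eWAT, against 3.24, 2.25 and 2.59 CPM in Cont cells. Again no library of one genotype overlapped the other, with log2 fold changes of −1.36 ± 0.31 and −1.40 ± 0.29 (adjusted p 0.00345 and 0.00165). The knockdown values were 0.75 ± 0.47 and 0.75 ± 0.40 in aKO cells and −0.34 ± 0.26 and −0.53 ± 0.23 in Cont cells, and none passed (adjusted p from 0.0901 to 0.394). Exons of Rarb overlap Top2b and Gm48162 on the opposite strand over 2020 bases, and the sources used here do not give the strand setting of the counting. Top2b differed by 0.03 in iWAT and −0.00 in eWAT between aKO and Cont siNS cells (adjusted p 0.845 and 0.976), and Gm48162 had 1 count in all.

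Rarg (ENSMUSG00000001288, chr15:102234938-102257517, minus strand), the most abundant receptor, stood at 48.0, 75.1 and 48.0 CPM in aKO siNS cells of iWAT, against 71.1, 66.5 and 66.8 CPM in Cont siNS cells. The value of 75.1 CPM is that of the shallow library, which made the groups overlap. In epididymal cells it was measured at 58.1, 55.5 and 59.0 CPM in aKO siNS cells, against 73.5, 77.3 and 78.5 CPM in Cont siNS cells, with no overlap. Rarg fell by 0.46 ± 0.08 in iWAT and 0.41 ± 0.07 in eWAT (edgeR adjusted p 0.00018 and 8.24e-05), and by 0.51 ± 0.07 in iWAT without the shallow library (adjusted p 9.68e-07). The iWAT call was lost when only the 2 groups compared entered the fit (−0.43, adjusted p 0.124). Under siCEBPb the fall was nearly the same, at 0.41 ± 0.07 in iWAT and 0.42 ± 0.07 in eWAT (adjusted p 0.000216 and 0.000107). Knockdown moved it little, with log2 values between 0.16 and 0.23, of which that in iWAT aKO cells passed (0.23 ± 0.08, adjusted p 0.0272). Leaving out siNS replicate 1 or 3 or siCEBPb replicate 2 or 3 ended that call (adjusted p 0.0673 to 0.192). It was also lost with no filter on low counts, with DESeq2 and with only the groups compared in the fit, 7 of 13 alternatives in all. It passed at 0.29 without the shallow library, and so did the values in Cont cells of iWAT and eWAT and in aKO cells of eWAT, at 0.17, 0.15 and 0.15 (adjusted p 0.024, 0.0384 and 0.0413).

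Rara (ENSMUSG00000037992, chr11:98927818-98974942, plus strand) stood at 45.5, 77.0 and 40.7 CPM in aKO siNS cells of iWAT, against 32.5, 31.9 and 35.0 CPM in Cont siNS cells, with the highest value again in the shallow library. For eWAT the libraries gave 51.4, 49.6 and 49.1 CPM in aKO siNS cells, against 39.8, 41.3 and 43.3 CPM in Cont siNS cells. The groups did not overlap, and Rara rose by 0.44 ± 0.11 in iWAT and 0.27 ± 0.10 in eWAT (edgeR adjusted p 0.00761 and 0.0471). The iWAT value was 0.37 ± 0.09 without the shallow library (adjusted p 0.00378), and the iWAT call was lost with only the groups compared in the fit. The eWAT call was lost under 9 of 14 alternatives, among them leaving out any 1 of its 6 libraries (adjusted p 0.0603 to 0.159). Under siCEBPb the genotype values were −0.07 ± 0.10 and 0.07 ± 0.10 (adjusted p 0.816 and 0.748). Knockdown lowered Rara in iWAT aKO cells by 0.32 ± 0.11 (adjusted p 0.0261), and passed in no other pair. That call was lost with only the groups compared in the fit (adjusted p 0.166) and without siNS replicate 1 or siCEBPb replicate 1 or 2 (adjusted p 0.0539 to 0.113).

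Per kilobase, Rarg led the receptors in each of these groups, with a higher share of Rara in aKO siNS cells. Rara made up 47.4% and 45.7% of the summed RAR level in aKO siNS cells of iWAT and eWAT, against 31.3% and 33.7% in Cont siNS cells. Rarg made up 51.8% and 53.8% in aKO siNS cells, against 66% and 63.7% in Cont siNS cells. The means over the 2 deeper libraries of iWAT aKO siNS cells were 46.4% for Rara, 53.1% for Rarg and 0.546% for Rarb. Rarb never exceeded a few percent, at 0.715% and 0.442% in aKO siNS cells and 2.74% and 2.61% in Cont siNS cells.

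Cyp26b1 (ENSMUSG00000063415, chr6:84571414-84593908, minus strand), the enzyme of clearance, stood at 18, 23.7 and 20.0 CPM in aKO siNS cells of iWAT, against 11.4, 13.3 and 11.3 CPM in Cont siNS cells. In eWAT it stood at 22.0, 18.6 and 23.4 CPM in aKO siNS cells, against 11.6, 12.9 and 13 CPM in Cont siNS cells. All aKO libraries lay above all Cont libraries, and the same held under siCEBPb, where it stood at 18.7, 18 and 18.6 CPM in aKO cells of iWAT, against 13.5, 8.46 and 12.0 CPM in Cont cells. The siCEBPb values in eWAT were 20.9, 21.5 and 20.0 CPM in aKO cells, against 12.2, 9.58 and 11.6 CPM in Cont cells. Cyp26b1 rose by 0.68 ± 0.14 in iWAT and 0.77 ± 0.12 in eWAT under siNS (edgeR adjusted p 0.000967 and 1.95e-05) and by 0.72 ± 0.13 and 0.90 ± 0.12 under siCEBPb (adjusted p 0.000252 and 5.44e-06). These 4 calls held under every alternative run. Knockdown values lay between −0.16 and −0.04 and none passed.

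**Figure D4:**
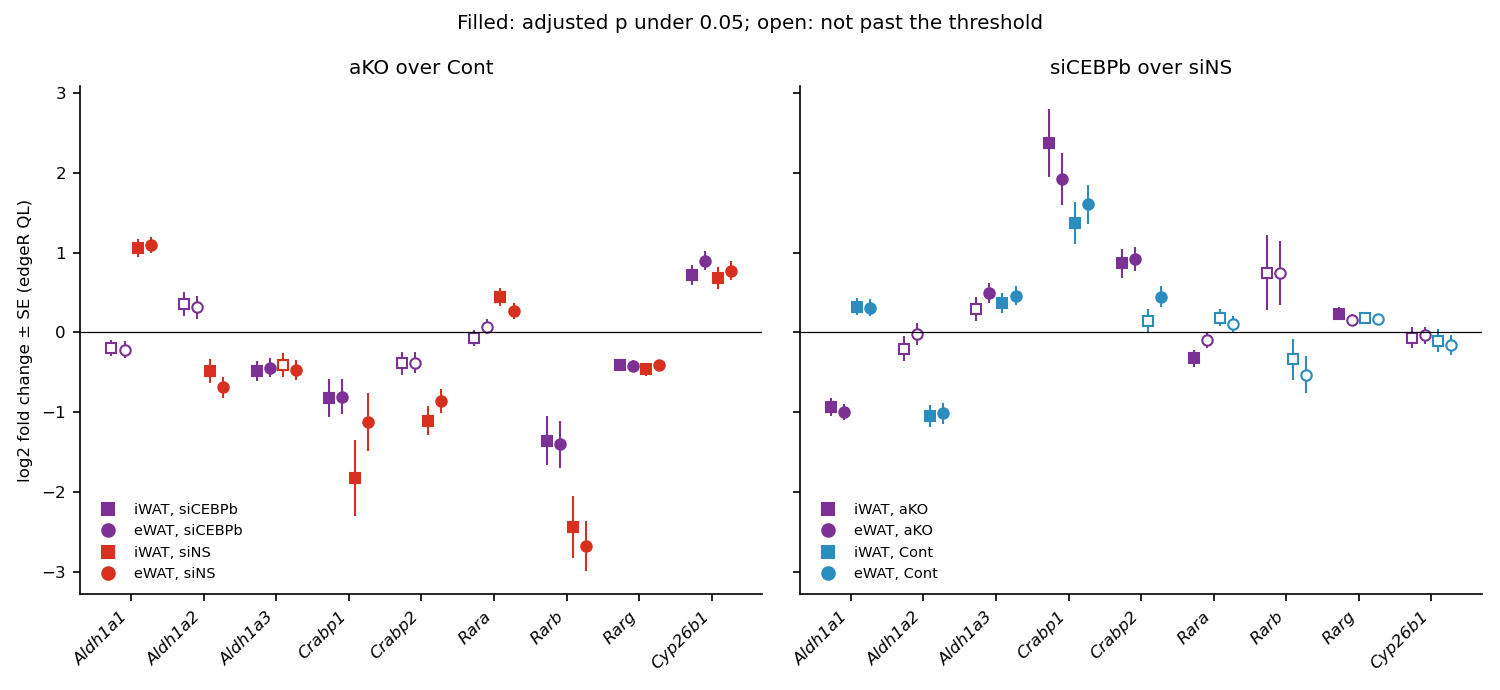
Log2 fold change ± SE of the 9 genes, aKO over Cont on the left under each siRNA and siCEBPb over siNS on the right in each genotype. Squares are iWAT and circles eWAT, and filled marks have an edgeR adjusted p below 0.05. Under siNS, Aldh1a1 stands at 1.06 and 1.09 and Rarb at −2.44 and −2.68, while the knockdown moves Aldh1a1 by −0.93 and −1.0 in aKO cells.

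Counted together, aKO siNS against Cont siNS cells gave 8 of 9 genes past the test in iWAT, of which 3 rose and 5 fell, where 15.2% of all tested genes passed. Without the shallow library the same 8 passed in iWAT, where 18.6% of tested genes did, with log2 fold changes of 1.09 for Aldh1a1, −0.48 for Aldh1a2, −1.80 for Crabp1, −1.14 for Crabp2 and 0.66 for Cyp26b1 (adjusted p 3.72e-08, 0.0321, 0.00733, 1.19e-05 and 0.000611). In eWAT 9 of 9 passed, of which 3 rose and 6 fell, where 20.4% of tested genes passed. The 8 that passed in both depots moved the same way in both, as 12.1% of tested genes did. The libraries of the 2 genotypes did not overlap for 8 of the 9 in iWAT and 9 in eWAT, where that held for 25.8% and 39.3% of tested genes. For Crabp1 and Rarb in iWAT that count includes the shallow library's 0 and 1 counts. The median log2 fold change of the 9 was −0.46 in iWAT and −0.47 in eWAT, beside −0.00 and 0.00 over all tested genes. Under siCEBPb 5 of 9 passed in each depot, 1 higher and 4 lower in aKO cells, where 10% of tested genes passed in iWAT (3.52% higher and 6.51% lower) and 10.8% in eWAT (3.9% higher and 6.87% lower). The genotypes did not overlap under siCEBPb for 6 of the 9 in iWAT and 7 in eWAT, where that held for 31.6% and 28.9% of tested genes. For the knockdown, 5 of 9 passed in iWAT aKO cells and 4 of 9 in eWAT aKO cells, where 31.3% and 35.7% of tested genes passed. The same 5 passed in iWAT aKO cells without the shallow library, where 35.7% of tested genes did, with Aldh1a1 at −0.96, Crabp1 at 2.36, Crabp2 at 0.90 and Rara at −0.26 (adjusted p 4.4e-08, 4.86e-05, 9.77e-05 and 0.0254). In Cont cells 4 of 9 passed in iWAT and 5 of 9 in eWAT, where 24.3% and 26.8% of tested genes passed. The share of the 9 that passed was above the background for genotype and nearer to it for the knockdown. The 9 were chosen with earlier results of these data known, so these shares describe them and are no test of the pathway. Both siRNA comparisons of a genotype share libraries with the genotype comparisons, so the values of one are not independent of the other.

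Markers of other cells moved with the same contrasts. The summed CPM of 11 mesothelial markers lay between 3.95 and 8.59 in aKO libraries and between 25.9 and 34.1 in Cont libraries, and none of the 11 was at 0 everywhere. Of the 11, 6 were tested, and 3 (Wt1, Krt19 and Krt7) fell and 0 rose in each depot under siNS. Upk3b, Upk1b and Lrrn4 passed no genotype test under siNS. With the knockdown 3 of the 6 rose in Cont cells of each depot and 0 in aKO cells. Those 3 were Upk3b, Upk1b and Lrrn4, whose means stayed at or below 2.56 CPM in every group, and which rose by 2.05, 2.81 and 2.72 in iWAT Cont cells and by 2.52, 3.88 and 2.32 in eWAT Cont cells (edgeR adjusted p from 0.00138 to 0.0453). Other tested markers went the opposite way in Cont cells. Krt7 fell with the knockdown by 1.31 in iWAT and 1.43 in eWAT (edgeR adjusted p 0.00242 and 0.000659). Krt19 fell in iWAT by 0.46 (adjusted p 0.0279). Aldh1a2 is itself known to be expressed in mesothelium. Wt1, a marker of mesothelium and of visceral fat precursors, stood at 1.46, 1.98 (1 count in the shallow library) and 1.44 CPM in aKO siNS cells of iWAT, against 14.3, 14.6 and 14.2 CPM in Cont siNS cells. Its level was as high in iWAT as in eWAT Cont siNS cells, where it stood at 14.3, 15 and 15.9 CPM. The 11 mesothelial markers together averaged 26.1 CPM in those eWAT cells, so Wt1 was the larger part of that sum. In eWAT aKO siNS cells they averaged 7.08 CPM, with Wt1 at 1.61, 1.76 and 1.42 CPM. With the knockdown, the 8 leukocyte markers summed to 110 and 124 CPM in aKO siCEBPb cells of iWAT and eWAT, against 1131 and 1413 CPM in aKO siNS cells, and to 293 and 320 CPM in Cont siCEBPb cells, against 1899 and 2017 CPM in Cont siNS cells. All 8 fell with the knockdown in each genotype and depot, and 3 in iWAT and 5 in eWAT fell with the genotype under siNS. The 10 adipocyte markers summed to 1128 and 969 CPM in aKO siCEBPb cells, against 3372 and 2600 CPM in aKO siNS cells, and to 1366 and 1070 CPM in Cont siCEBPb cells, against 2430 and 1913 CPM in Cont siNS cells. With the knockdown in Cont cells Cebpa, Lpl, Retn and Slc2a4 fell in both depots, and no other of the 10 passed. Without the shallow library 8 fell and 0 rose in iWAT aKO cells. Adipoq passed in no knockdown comparison, at −0.45 and −0.47 in aKO and 0.11 and 0.36 in Cont cells (edgeR adjusted p 0.203 to 0.837). All 10 adipocyte markers were tested between genotypes under siNS, and 3 rose in iWAT and 6 in eWAT while none fell. In iWAT 4 rose without the shallow library, Adipoq among them, and the means of iWAT aKO siNS cells were 3151 CPM for the adipocyte and 1340 CPM for the leukocyte sum. Adipoq, whose promoter drives Cre, stood at 150, 59.3 (the shallow library) and 187 CPM in aKO siNS cells of iWAT, against 65.7, 94.8 and 87.8 CPM in Cont siNS cells. Its eWAT values were 126, 157 and 184 CPM in aKO siNS cells, against 58.1, 80.2 and 70.5 CPM in Cont siNS cells. Adipoq rose there by 1.17 ± 0.28 (edgeR adjusted p 0.00627), while the iWAT value of 0.91 ± 0.30 did not pass (adjusted p 0.0501). The 7 markers of smooth muscle and pericytes summed to 3628 and 3592 CPM in aKO siCEBPb cells of iWAT and eWAT, against 1441 and 1472 CPM in aKO siNS cells, and to 2834 and 2819 CPM in Cont siCEBPb cells, against 1644 and 1622 CPM in Cont siNS cells. Without the shallow library, 5 of these 7 rose and 1 fell with the knockdown in iWAT aKO cells, and 0 rose and 3 fell with the genotype in iWAT siNS cells. Myh11, the myosin heavy chain of smooth muscle, rose by 2.52 and 2.69 with the knockdown in aKO cells and by 1.95 and 1.91 in Cont cells (adjusted p from 3.01e-12 to 8.17e-10). Des, which encodes the filament protein desmin, fell by 2.46 in iWAT and 2.05 in eWAT with the genotype under siNS (adjusted p 3.15e-10 and 1.64e-10). The 7 endothelial markers summed to 37.1 and 32.5 CPM in aKO siNS cells (30.0 in the 2 deeper iWAT libraries), against 36.2 and 39.8 CPM in Cont siNS cells. Of these 3 fell and 1 rose in iWAT, and 4 fell and 1 rose in eWAT, where Cdh5, a cadherin of endothelial junctions, fell by 1.40 and 1.71 and Pecam1, a surface protein of endothelium, by 1.46 and 1.03 (adjusted p from 4.52e-06 to 0.00247). Of the 10 progenitor and fibroblast markers 2 rose and 1 fell in iWAT, and 3 rose and 1 fell in eWAT. The one that fell was Dpp4, which marks early progenitors, by 2.16 and 2.43 (adjusted p 0.00138 and 2.64e-05). The 4 epithelial markers summed to 0.168 to 0.253 CPM and the 4 Schwann cell markers to 2.14 to 4.6 CPM over the groups. Of all tested genes, 15.2% in iWAT and 20.4% in eWAT passed between genotypes under siNS. With the knockdown 31.3% and 35.7% passed in aKO cells, and 24.3% and 26.8% in Cont cells. The part of these cell types in the results was not tested.

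Between depots, 1 of the 9 genes passed in 1 of 4 pairs of groups. This was Rara in aKO siCEBPb cells, at 34.6, 36.7 and 36.2 CPM in iWAT against 45, 54.2 and 41.5 CPM in eWAT (log2 −0.39 ± 0.10, edgeR adjusted p 0.047), where 1.44% of tested genes passed. That call was lost under 9 of 15 alternatives. It stood at −0.39 with the replicate number as a block pairing the depots (adjusted p 0.0618), and at −0.26 without eWAT aKO siCEBPb replicate 2 (adjusted p 0.35). In the other pairs Rara differed by −0.33 ± 0.10 in Cont siNS, −0.25 ± 0.10 in Cont siCEBPb and −0.16 ± 0.11 in aKO siNS cells (adjusted p 0.116, 0.162 and 0.622), where 1.2%, 3.35% and 0.352% of tested genes passed. Without the shallow library the first 2 of these passed (adjusted p 0.0103 and 0.0362), and so did Rarg in aKO siNS cells (−0.27, adjusted p 0.0145), where 7.74%, 11.4% and 5.26% of tested genes passed. With edgeR, 0 of the 14785 genes passed the test of whether the genotype effect under siNS or the knockdown effect in Cont cells differed between depots, where 415 and 428 had an unadjusted p below 0.05. DESeq2 and limma voom with sample weights also gave 0, while edgeR with no filter on low counts gave 18 and 6 of 30184 genes, none of them among the 9.

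The wider pathway was read from 4 lists of genes. Of 18 genes of retinol uptake, storage and first oxidation, 12 were tested, and in aKO against Cont siNS cells 0 rose and 3 fell in iWAT while 1 rose and 3 fell in eWAT. Over all tested genes, 7.32% rose and 7.85% fell in iWAT, and 9.5% rose and 10.9% fell in eWAT. Dhrs3 and Rdh10 fell in both depots. Dhrs3, the reductase that returns retinaldehyde to retinol and a gene known to be induced by retinoic acid, stood at 63.5, 59.3 and 63.1 CPM in aKO siNS cells of iWAT, against 103, 110 and 113 CPM in Cont siNS cells. It fell by 0.78 ± 0.08 there and by 0.73 ± 0.07 in eWAT, and by 0.92 ± 0.07 and 0.84 ± 0.07 under siCEBPb (edgeR adjusted p 8.4e-08, 2.4e-08, 1.5e-09 and 4.2e-09). Rdh11 and Dhrs4, dehydrogenases of retinoids, passed no genotype test (without the shallow library Rdh11 rose by 0.30 in iWAT siNS cells, adjusted p 0.00871), and Dgat1, which can esterify retinol, rose in eWAT by 0.33 ± 0.10 (adjusted p 0.025). Lrat, the acyltransferase of retinol storage, had 5 counts in all libraries and Stra6, a retinol receptor, 53, and neither was tested.

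Knockdown lowered Rbp4 and Stra6l in both genotypes and both depots. Rbp4, the plasma carrier of retinol that fat cells secrete, averaged 5.01 and 5.46 CPM in aKO siCEBPb cells of iWAT and eWAT, against 20.6 and 26.9 CPM in aKO siNS cells. It averaged 7.78 and 7.07 CPM in Cont siCEBPb cells, against 19.8 and 20.6 CPM in Cont siNS cells. Rbp4 fell by 2.24 ± 0.37 and 2.32 ± 0.32 in aKO cells and by 1.36 ± 0.34 and 1.55 ± 0.32 in Cont cells (edgeR adjusted p 0.0001, 1.4e-05, 0.0056 and 0.001). Stra6l, a paralogue of the retinol receptor, fell by 3.31 ± 0.46 and 1.75 ± 0.34 in aKO cells and by 1.46 ± 0.33 and 1.79 ± 0.28 in Cont cells (adjusted p 1.8e-06, 0.00017, 0.0012 and 1.7e-05). Rdh5, a retinol dehydrogenase known from the eye, rose by 1.43 ± 0.46 and 1.44 ± 0.37 in Cont cells (adjusted p 0.023 and 0.0039). In all, 2 of the 12 tested genes rose and 4 fell in iWAT Cont cells, and 4 rose and 4 fell in eWAT Cont cells, where 24.3% and 26.8% of tested genes passed in either direction. Between genotypes under siCEBPb, Stra6l fell in iWAT by 1.99 ± 0.52 (adjusted p 0.0119).

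Of 11 partner receptors and coregulators, all tested, 2 rose and 0 fell with the genotype in iWAT siNS cells, and 2 rose and 1 fell in eWAT siNS cells, where 15.2% and 20.4% of tested genes passed in either direction. Rxra, a partner of the receptors on DNA, averaged 139 and 136 CPM in aKO siNS cells of iWAT and eWAT, against 106 and 102 CPM in Cont siNS cells. It rose by 0.38 ± 0.07 and 0.42 ± 0.07 (edgeR adjusted p 0.00041 and 3.2e-05), and knockdown lowered it in aKO cells by 0.54 ± 0.07 and 0.45 ± 0.07 (adjusted p 9.2e-07 and 4e-06). The genotype dependence of the knockdown passed for Rxra as it did for Aldh1a1, at −0.35 ± 0.10 and −0.33 ± 0.09 (adjusted p 0.045 and 0.032). Rxra rose by 0.37 in iWAT without the shallow library, and its genotype dependence there was −0.33 (adjusted p 0.000116 and 0.0238). Rxrg, another partner of the receptors, rose in eWAT aKO siNS cells by 1.32 ± 0.35 (adjusted p 0.0068), and knockdown lowered it in aKO cells by 1.42 ± 0.43 in iWAT and 1.5 ± 0.36 in eWAT (adjusted p 0.0126 and 0.00158). Its iWAT genotype value was 0.98 ± 0.42 and did not pass (adjusted p 0.156). The corepressor Ncor1 passed no test of genotype or knockdown. Fabp5, which can hand retinoic acid to PPARδ, fell with knockdown by 1.42 ± 0.23 and 1.47 ± 0.22 in aKO cells and by 1.00 ± 0.22 and 1.02 ± 0.21 in Cont cells (adjusted p 8.9e-05, 2.6e-05, 0.0019 and 0.0012).

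Of 17 textbook targets of retinoic acid, 14 were tested, and in aKO against Cont siNS cells 1 rose and 5 fell in iWAT while 1 rose and 6 fell in eWAT. Of all tested genes, 7.32% rose and 7.85% fell in iWAT, and 9.5% rose and 10.9% fell in eWAT. The median log2 fold change of the list was −0.28 and −0.13, beside −0.00 and 0.00 over all tested genes. Leaving out the shallow library, 1 rose and 6 fell in iWAT, with a median of −0.29, where 18.6% of tested genes passed in either direction. Tgm2, tissue transglutaminase, stood at 64.5, 57.3 and 61.2 CPM in aKO siNS cells of iWAT, against 123, 128 and 133 CPM in Cont siNS cells, and fell by 1.04 ± 0.08 there and 1.05 ± 0.07 in eWAT (edgeR adjusted p 1.3e-10 and 6.7e-12). Hoxa5, a homeobox gene, fell by 1.09 ± 0.18 and 1.09 ± 0.14, and Rarres2, which encodes the adipokine chemerin, by 1.31 ± 0.16 and 0.98 ± 0.14. Dhrs3 and Meis1 fell in both depots as well, and the 1 that rose in both depots was Zfp423, a regulator of fat precursors, by 0.59 ± 0.16 and 0.57 ± 0.14 (adjusted p 0.012 and 0.0036). Leaving out the shallow library, the iWAT values were −0.78 for Dhrs3, −1.04 for Tgm2, −1.06 for Hoxa5, −1.27 for Rarres2 and 0.58 for Zfp423, and each passed (adjusted p from 8.57e-13 to 0.00996). Under siCEBPb 0 rose and 6 fell in each depot, where Tgm2 fell by 0.82 ± 0.07 and 0.80 ± 0.07 and Rarres2 by 1.1 ± 0.17 and 1.26 ± 0.16. Of all tested genes, 3.52% rose and 6.51% fell with the genotype under siCEBPb in iWAT, and 3.9% and 6.87% in eWAT. Rarres2 also fell with knockdown, by 1.17 ± 0.18 and 1.55 ± 0.16 in aKO cells and by 1.40 ± 0.15 and 1.27 ± 0.14 in Cont cells, and Rarres1 fell by 1.5 ± 0.38 in iWAT aKO cells (adjusted p 0.00323) and by 1.61 ± 0.43 and 1.30 ± 0.38 in Cont cells. In eWAT aKO cells the Rarres1 value was −0.72 ± 0.30 (adjusted p 0.0649). Of the 14 tested, 2 rose and 3 fell with the knockdown in iWAT aKO cells without the shallow library, with a median of 0.06. There 35.7% of tested genes passed in either direction. Cyp26a1, whose DR5 repeat is shown above, had 14 counts in all libraries and was not tested, and Cyp26c1 had 36. The list that held Cyp26c1 had 1 tested gene, Cyp1b1. It fell by 0.65 ± 0.11 in iWAT and 0.61 ± 0.11 in eWAT in aKO against Cont siNS cells (edgeR adjusted p 0.00015 and 0.00019). Whether Cyp1b1 makes or clears retinoic acid in these cells was not tested. Of 31 symbols with a DR5 repeat in a promoter 5 were tested, and 0 rose and 1 fell in iWAT while 1 rose and 1 fell in eWAT in the same comparison. The 1 that fell in each depot was Rarb itself, so it is no result beyond that given for Rarb above.

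**Figure D5:**
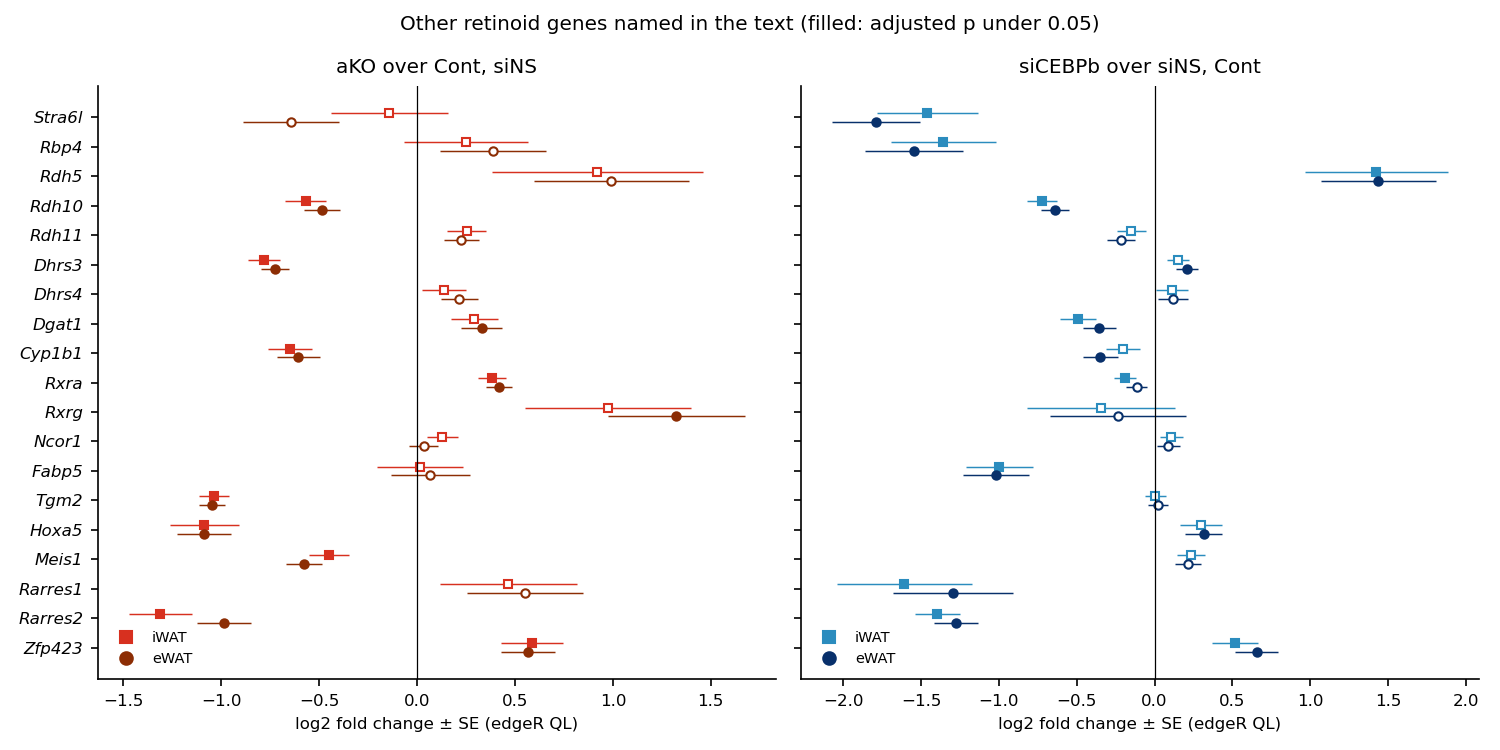
Log2 fold change ± SE of the 19 other retinoid genes that were tested and named, aKO over Cont under siNS on the left and siCEBPb over siNS in Cont cells on the right, squares for iWAT and circles for eWAT, filled where the edgeR adjusted p is below 0.05. Dhrs3, Tgm2 and Hoxa5 lie below 0 on the left in both depots, and Rbp4 and Stra6l lie below 0 on the right.

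Of the 9 genes, 3 had a mean log2 CPM of at least 1 and group means that spanned at least 1 on the log2 scale, and for these the genes with the most similar profile were sought. Likeness was the root mean square distance between centred log2 group means over the 8 groups, among 12054 genes. Nearest to Aldh1a1 were Tnik at 0.111, Npr3 at 0.112 and Gstt1 at 0.127. Nearest to Aldh1a2 were Tnfrsf21 at 0.104, Gcnt1 at 0.144 and Rnf149 at 0.145. Nearest to Crabp2 were Tro at 0.103, Plcxd2 at 0.126 and Rai14 at 0.134. Likeness over 8 points is a description of these groups.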

How the data were processed

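Poly(A) RNA of 24 libraries was sequenced from kits that keep the strand, per the labels. Reads were processed with CASAVA, cutadapt 2.7, TopHat2 2.1.1 on GRCm38, HTSeq and edgeR, per the submitters' processing notes. The sources used here do not give the strand setting of the counting. The deposited table held raw read counts per gene for 53465 genes and 5 counter lines, which stayed out of library sizes and tests. Those lines took 95.9% of the listed reads of the shallow library (iWAT aKO siNS replicate 2) and 27.5% to 39.5% in the other 23. The deposited per-sample signal files were not used. GENCODE M21 named 53274 identifiers and left 191 unnamed.

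A low-count filter (filterByExpr, minimum count 10) retained 14785 genes. TMM scaling factors were 0.839 in the shallow library and 0.985 to 1.04 elsewhere. CPM is a count divided by the library's gene counts times its TMM factor, multiplied by 1e6. One negative binomial model over the 8 groups was fitted in R 4.3.3 with edgeR 4.0.16 (quasi-likelihood test, robust) and p-values were adjusted by Benjamini and Hochberg over all tested genes, with a threshold of 0.05. Every adjusted p in the text is from edgeR unless another tool is named, and values after ± are SE unless SD is stated. No library was dropped or imputed. Alternatives were DESeq2 1.42.0, limma 3.58.1 voom with sample weights, other scalings and filters, the groups compared alone, replicate blocks and leaving out each library. Floors of 3 counts cover counting error only. The script was tested on simulated data.

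The rule for named genes took the 9 genes, the 4 most abundant of each pathway list, list genes past the threshold with an absolute log2 fold change of at least 1, and the 3 nearest profiles. Some list genes are counted in their lists but not reported here by name. Rdh10, Meis1 and Zfp423 fall outside it and were named after their values were seen, as were Lrat, Stra6, Top2b and Gm48162. The members and lists were chosen with earlier results of these data known. Replicate numbers were checked as pairs on 8159 genes by the correlation of deviations from group means. All 3 depot pairs exceeded 0.1 in Cont siNS cells (0.271, 0.426 and 0.313) and in aKO siCEBPb cells (0.744, 0.422 and 0.530), and were taken as pairs there, while 2 of 12 genotype pairs and 1 of 12 siRNA pairs did.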

Additional observations from a re-analysis of the deposited data

Results flagged for a closer look

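The knockdown effect differed between the genotypes, by the test of that difference, for 2 of the 9 genes. Cebpb itself was lower in aKO than in Cont cells under siCEBPb, and the part of that in these results was not tested. For Aldh1a1 the effect in aKO minus that in Cont cells was −1.26 in iWAT and −1.31 in eWAT on the log2 scale (edgeR adjusted p 2.31e-05 and 2.84e-06). For Aldh1a2 it was 0.84 in iWAT and 1.00 in eWAT (edgeR adjusted p 0.0219 and 0.00206).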

How the results depend on the processing

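Of 144 results (9 genes in 16 comparisons) 50 passed with edgeR, 31 of these passed under every alternative run, 19 were lost under at least 1, and 0 reversed. The cause of these changes was not tested. With only the groups compared in the fit, the number of the 9 genes that passed was 5 in place of 8 for aKO against Cont in iWAT under siNS, and 3 in place of 5 for the knockdown in iWAT aKO cells. For the test of whether the knockdown effect differed between genotypes in iWAT, 4 passed in place of 2 with no filter on low counts, with voom (here always with sample weights, so that method and weights change together) and with the replicate block, and in eWAT 3 passed with no filter. For iWAT against eWAT in Cont siNS cells 1 passed in place of 0 with no filter, with voom and with the groups alone. In Cont siCEBPb cells 2 passed with voom and 1 with the groups alone, in place of 0, and in aKO siNS cells 1 with voom, in place of 0. In aKO siCEBPb cells 0 passed in place of 1 with DESeq2 size factors, with the DESeq2 Wald test, with the groups alone and with the block of depot pairs.

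Leaving out each library in turn gave, of the 9 genes, 6 to 8 in iWAT and 6 to 9 in eWAT for genotype under siNS, and 3 to 5 and 3 to 6 under siCEBPb. For the knockdown it gave 3 to 5 in iWAT and 4 to 5 in eWAT aKO cells, and 2 to 5 and 3 to 6 in Cont cells. The genotype dependence of the knockdown gave 1 to 4 in iWAT and 2 to 2 in eWAT, each depot comparison 0 to 1 and each depot interaction 0 to 0. Calls that rested on single libraries beyond those named above were Rara in iWAT without aKO siNS replicate 1 (adjusted p 0.0512) and Crabp2 in eWAT Cont cells without siNS replicate 1 or siCEBPb replicate 3 (adjusted p 0.0618 and 0.059).

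With the replicate block across genotypes or siRNAs, where the numbers did not pair the samples, 9 genes passed for genotype in each depot under siNS and 6 in each under siCEBPb, and Aldh1a3 in iWAT siNS cells passed (adjusted p 0.00429). For the knockdown under the block 6 passed in iWAT aKO cells, 4 in eWAT aKO cells, 4 in iWAT Cont cells and 5 in eWAT Cont cells. For the paired depot groups the block changed no call but that of Rara.

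Over all tested genes, counts past the threshold moved by over 1.5 times in these cases, leaving out 1 library being given for the shallow one alone. For the depot dependence of the genotype and knockdown effects they were 18 and 6 with no filter, in place of 0. With the groups alone, genotype in iWAT under siNS gave 743 in place of 2243, and knockdown in iWAT aKO cells 2374 in place of 4623. Genotype in iWAT under siCEBPb gave 2551 with voom in place of 1483. The genotype dependence of the knockdown gave 2007 with voom and 1689 without the shallow library in place of 938 in eWAT, and 921 with no filter, 1204 with voom, 290 with the groups alone and 940 without the shallow library in place of 519 in iWAT. For depot, Cont siNS gave 542 with no filter, 856 with voom, 709 with the groups alone and 1144 without the shallow library in place of 178. Cont siCEBPb gave 3632 with voom, 3045 with the groups alone and 1683 without that library in place of 496. In aKO siCEBPb cells the counts were 521, 656, 119 with the block of depot pairs and 1464 in place of 213, and in aKO siNS cells 138, 1102, 0 with the groups alone and 777 in place of 52, where DESeq2 gave 84. Depth limits Crabp1, with 8 counts in the 3 iWAT aKO siNS libraries, and Rarb, with 627 in all.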
